A study of Mus musculus with 6 samples.

Results

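The results concern 10 genes of the integrated stress response, Atf4, Atf5, Ddit3, Ddit4, Trib3, Asns, Chac1, Sesn2, Ppp1r15a and Eif2ak3, in endothelial cells (ECs) of the mouse spinal cord. They were taken by name from 56748 genes in the count table, with earlier results of these data known, and all 10 were among the 13107 genes with enough counts to be tested. RNA-Seq was performed on ECs sorted by flow cytometry at postnatal day (P) 16, with 1 library per mouse and 3 mice per group. Control mice were Tardbpflox, which carry loxP sites in the gene of TDP-43 but no Cre. Knockout mice were Cdh5(PAC)-CreERT2;Tardbpflox, called TDP-43iΔEC, in which the Cdh5 promoter drives a tamoxifen-dependent Cre in ECs. Both groups received tamoxifen (1 mg/mL) once a day from P5 to P7, so tamoxifen exposure does not separate them, whereas Cre does. Cre without floxed Tardbp was not analysed here.

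Cells answer endoplasmic reticulum (ER) stress, amino acid shortage and other insults by phosphorylating the translation factor eIF2 on its alpha subunit. Most protein synthesis then slows, whereas ATF4 is translated more, enters the nucleus and switches on genes for amino acid supply, among them Asns, and the gene Ddit3, which encodes CHOP. ATF4 and CHOP in turn raise genes that feed back on the pathway or restrain growth, and CHOP is known for promoting cell death when the stress lasts.

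ATF4 pairs with C/EBP proteins on a composite element whose core was searched here as TGATGNAA, on both strands. The promoter windows were RefSeq sequences of build GRCm38.p6 that span 250 bases before to 50 bases after each start. The core was found in 3 of 11 windows of the 10 genes, against 3.97% of 32851 windows of the same length. These 3 stretches are shown because they belong to Asns, Trib3 and Chac1, which are known targets of ATF4, and the capitals mark the core or its reverse complement.
Asns, chr6:7693210-7693252, minus strand, core 23 bases before the start: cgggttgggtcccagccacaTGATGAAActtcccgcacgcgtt
Chac1, chr2:119351029-119351076, plus strand, reverse complement 193 bases before the start: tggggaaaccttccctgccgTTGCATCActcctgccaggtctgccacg
Trib3, chr2:152344031-152344060, minus strand, reverse complement from base 15 after the start: agattagctcaggtTTACATCAgccgggcg
The ER stress element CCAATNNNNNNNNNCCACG, searched on both strands in the same windows, was found in 0 of the 11 windows and in 0.119% of all windows. At so low a share, 0 of 11 says nothing about these genes. A match of letters is a description of the window and was not tested as a binding site.

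The 10 genes as a group were mostly higher in TDP-43iΔEC ECs, but none passed the test across all genes. The log2 fold change of TDP-43iΔEC over control was above 0 for 9 of 10, against 49.3% of all tested genes, and its median was 1.67, against -0.02 over all tested genes. With limma, 0 of 10 had an adjusted p under 0.05, where 0.137% of all tested genes did in either direction. At an unadjusted p under 0.05, 5 of 10 were higher (Atf4, Ddit3, Trib3, Asns and Ppp1r15a), against 4.26% of all tested genes, and 0 of 10 were lower, against 5.0%. Normalized counts (counts divided by a size factor per library) did not overlap between the groups for 4 of 10, all higher in TDP-43iΔEC (Atf4, Ddit3, Trib3 and Ppp1r15a), where 7.93% of all tested genes were apart in that direction. None of the 10 was apart in the lower direction, where 7.10% of all tested genes were. With 3 mice against 3, the exact two-sided permutation p of 1 gene is at least 0.1, the value these 4 genes reached.

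**Figure D1:**
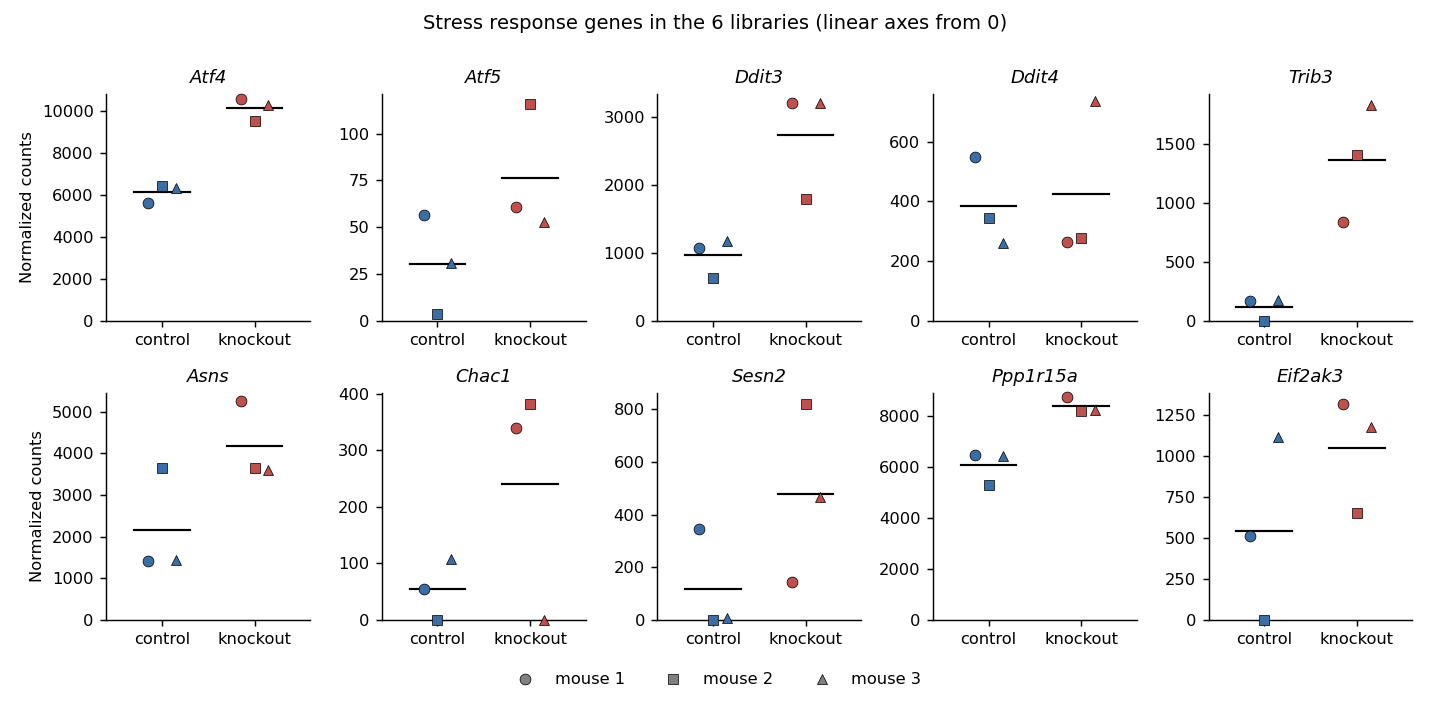
Normalized counts of each of the 10 genes in every mouse, 1 panel per gene on a linear axis from 0, with 3 control and 3 TDP-43iΔEC (knockout) points and a horizontal bar at each group mean. The groups are apart for Atf4, Ddit3, Trib3 and Ppp1r15a, whereas control mouse 2 lies at or near 0 for Trib3, Chac1, Sesn2, Atf5 and Eif2ak3.

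Several facts of the libraries bear on these genes. Total counts were 44041329, 45329494 and 47270654 in control mice 1 to 3 and 45010088, 28228980 and 25704871 in TDP-43iΔEC mice 1 to 3. Control mouse 2 had the fewest detected genes, 12972 against 14103 to 16557 in the others. Among tested genes with at least 10 counts in each of the other 5 libraries, 734 were at 0 in control mouse 2, against 14 to 214 in each of the others. Of the 10 stress response genes, 3 were at 0 and 5 were under 10 counts in control mouse 2, which was the lowest library for 7 of them. For Chac1, 1 of these 7, it was tied at 0 with TDP-43iΔEC mouse 3. Without control mouse 2 the median log2 fold change of the 10 was 0.70, against -0.17 over all tested genes, 8 of 10 had a log2 fold change above 0, against 41.2% of all tested genes, and 4 of 10 were higher at an unadjusted p under 0.05, against 2.69%. Tardbp, the deleted gene, had 1973, 2282 and 2069 normalized counts in the controls and 982, 600 and 433 in TDP-43iΔEC mice, so every TDP-43iΔEC library was below every control library (log2 fold change -1.62, SE 0.41, adjusted p = 0.287 with limma). These counts cover the whole gene, of which only exon 3 lies between the loxP sites, and 33.1% of its exonic sequence overlaps Masp2 on the other strand.

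Atf4 (chr15:80139372-80141745, plus strand, GRCm39), the transcription factor at the centre of the pathway, was higher in every TDP-43iΔEC library than in every control library. It had 5632, 6437 and 6339.6 normalized counts in the controls and 10591, 9533 and 10284 in TDP-43iΔEC mice. The means were 6136 ± 439 and 10136 ± 544 (SD, n = 3 each), a ratio of 1.65, and the log2 fold change was 0.69 (SE 0.17, 95% interval 0.31 to 1.08, adjusted p = 0.271). The difference between the means was thus several times the spread within either group, while it missed the threshold across all genes. ATF4 is controlled mostly through translation, which mRNA counts do not show.

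Ddit3 (chr10:127124268-127132163, plus strand), which encodes the transcription factor CHOP, was also apart between the groups. It had 1071, 635 and 1178 normalized counts in the controls and 3208, 1783 and 3197 in TDP-43iΔEC mice. The means were 961 ± 288 and 2729 ± 820 (SD, n = 3 each), a ratio of 2.84, and the log2 fold change was 1.48 (SE 0.41, 95% interval 0.56 to 2.40, adjusted p = 0.334). Control mouse 2 was the lowest of the controls, TDP-43iΔEC mouse 2 was the lowest of its group, and the log2 fold change without control mouse 2 was 1.19. Reads were assigned without using strand, and 82.4% of the exonic sequence of Ddit3 is shared with other genes, as is 100% of its canonical transcript. Mars1, the cytosolic methionyl-tRNA synthetase on the opposite strand, covers 64.1% of the exonic sequence of Ddit3. Mars1, named here because of that overlap, had 1435, 1146 and 1066 normalized counts in the controls and 1825, 2008 and 1687 in TDP-43iΔEC mice (log2 fold change 0.57, SE 0.30, adjusted p = 0.581), so it was apart between the groups in the same direction, and how reads were split between the overlapping genes was not tested.

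Atf5 (chr7:44461680-44466082, minus strand), a relative of ATF4 that is likewise controlled through translation, was low in all mice. It had 56.6, 3.56 and 30.8 normalized counts in the controls and 60.7, 116 and 52.5 in TDP-43iΔEC mice. The groups overlapped, since control mouse 1 lay above TDP-43iΔEC mouse 3, and the log2 fold change of 1.85 had an SE of 1.82 (95% interval -2.27 to 5.97, adjusted p = 0.755). Without control mouse 2 the log2 fold change was 0.70.

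The phosphorylation of eIF2 itself is set by kinases and phosphatases. Ppp1r15a (chr7:45172340-45175692, minus strand) encodes GADD34, which directs protein phosphatase 1 to eIF2 and so ends the response. It had 6454, 5306 and 6419 normalized counts in the controls and 8732, 8202 and 8238 in TDP-43iΔEC mice, and the groups were apart. The means were 6059.7 ± 653 and 8391 ± 296 (SD, n = 3 each), a ratio of 1.38, and the log2 fold change was 0.44 (SE 0.18, 95% interval 0.03 to 0.86, adjusted p = 0.516). Eif2ak3 (chr6:70821461-70882235, plus strand) encodes PERK, the eIF2 kinase that senses ER stress. It had 515, 1.78 and 1119 normalized counts in the controls and 1320.1, 652 and 1181 in TDP-43iΔEC mice. The 3 control libraries thus spread from near 0 to the TDP-43iΔEC level, and control mouse 3 lay above TDP-43iΔEC mouse 2. The log2 fold change was 3.15 (SE 1.73, 95% interval -0.77 to 7.06, adjusted p = 0.590) with control mouse 2, in which the gene had 2 raw counts, and 0.38 without it.

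The targets that act in amino acid and glutathione metabolism differed in how well the groups separated. Asns (chr6:7671667-7728461, minus strand), asparagine synthetase, had 1405, 3646 and 1442 normalized counts in the controls and 5264, 3646 and 3614 in TDP-43iΔEC mice. Control mouse 2 lay at the TDP-43iΔEC level, and the other controls lay below every TDP-43iΔEC library. The log2 fold change was 1.09 (SE 0.38, 95% interval 0.24 to 1.95, adjusted p = 0.454), and 1.51 (SE 0.33, adjusted p = 0.324) without control mouse 2, where the lowest TDP-43iΔEC library was 2.51 times the highest control library. Chac1 (chr2:119180757-119184866, plus strand), a glutathione-degrading enzyme, had 54.9, 0 and 108 normalized counts in the controls and 339, 383 and 0 in TDP-43iΔEC mice. Control mouse 2 and TDP-43iΔEC mouse 3 both had 0 counts, which allows up to 0.0662 and 0.117 CPM (counts scaled to one common library total), the level of 3 counts, so the groups overlapped. The log2 fold change of 1.94 (SE 3.17, adjusted p = 0.862) became -0.42 without control mouse 2.

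Trib3 (chr2:152179337-152191958, minus strand), a pseudokinase that CHOP and ATF4 induce and that binds AKT, showed the largest ratio of group means among the 10. It had 164, 0 and 177 normalized counts in the controls and 838, 1412 and 1836 in TDP-43iΔEC mice. The lowest TDP-43iΔEC library was 4.74 times the highest control library, so the groups were apart without regard to the control library at 0. The log2 fold change was 5.62 (SE 2.09, 95% interval 0.88 to 10.35, adjusted p = 0.480), and 2.76 (SE 0.85, adjusted p = 0.417) without control mouse 2. The larger value depends on the small count that the fit adds to the 0 of control mouse 2, and is no bound.

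Sesn2 and Ddit4 encode inhibitors of mTORC1, the kinase complex that promotes growth when amino acids are plentiful. Sesn2 (chr4:132219335-132237815, minus strand), sestrin 2, had 344, 0 and 6.49 normalized counts in the controls and 144, 822 and 467 in TDP-43iΔEC mice. Control mouse 1 lay above TDP-43iΔEC mouse 1, so the groups overlapped, and the log2 fold change of 4.82 had an SE of 2.36 (adjusted p = 0.560). Without control mouse 2 it was 2.67. Ddit4 (chr10:59785491-59788492, minus strand), also called REDD1, is induced by glucocorticoids and hypoxia as well as by ATF4. It had 549, 344 and 261 normalized counts in the controls and 264, 275 and 737 in TDP-43iΔEC mice. A single library, TDP-43iΔEC mouse 3, lay above all others, and the fitted value on the log2 scale was -0.18 (SE 0.68, 95% interval -1.72 to 1.36, adjusted p = 0.950), the only one of the 10 below 0.

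**Figure D2:**
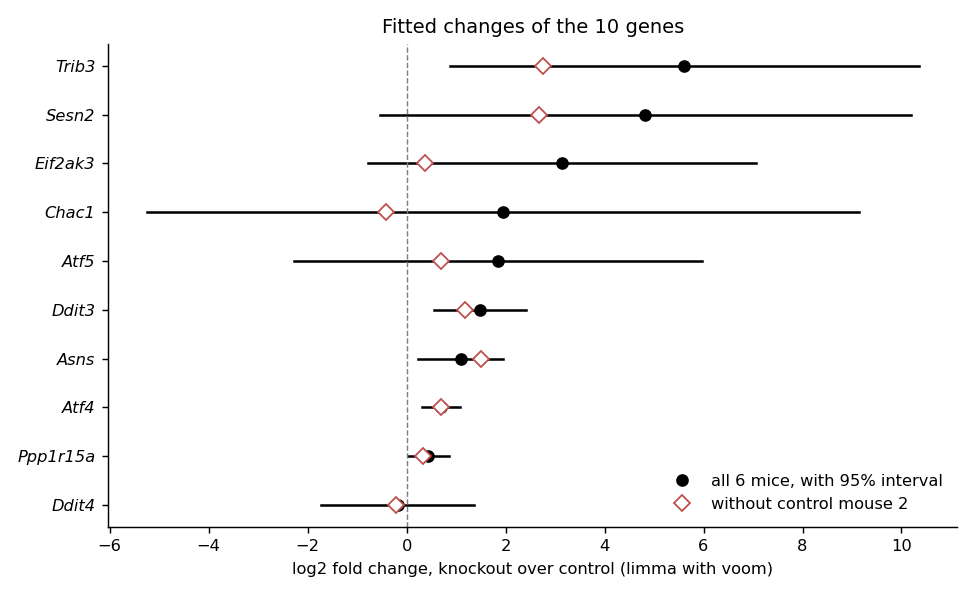
Log2 fold change of TDP-43iΔEC over control for each of the 10 genes with its 95% interval, from the fit with all 6 mice (filled points), and its value without control mouse 2 (open diamonds, no interval drawn). Intervals that exclude 0 with all mice belong to Atf4, Ddit3, Trib3, Asns and Ppp1r15a, and the values of Trib3, Sesn2, Eif2ak3 and Chac1 move most when control mouse 2 is left out.

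When each mouse was left out in turn, the smallest log2 fold changes were 0.63 for Atf4, 1.19 for Ddit3, 2.76 for Trib3 and 0.32 for Ppp1r15a. The unadjusted limma p of Ppp1r15a was above 0.05 in each of these fits (0.058 to 0.132). That of Asns was 0.069 to 0.082 without control mouse 1, control mouse 3 or TDP-43iΔEC mouse 1. It was 0.0017 to 0.024 without each other mouse. Other tests did not give the same calls. DESeq2 called 2 of the 10, Atf4 (log2 fold change 0.72, adjusted p = 0.00346) and Ddit3 (1.51, adjusted p = 0.0379), where it called 1.91% of all tested genes in either direction. In contrast, edgeR called 0 of 10, with 4 of 10 at an unadjusted p under 0.05, where 6.47% of all tested genes were.

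Levels were compared between genes as CPM per kilobase of exonic sequence. In control mice Atf4 had the highest level (median 67.2, range 64.8 to 69.6), followed by Ppp1r15a (57.0, 44.8 to 60.0) and Ddit3 (5.24, 2.82 to 5.50). These 3 neighbours did not overlap, whereas every later neighbour in the order did. Median control levels were 3.28 for Asns, 3.14 for Ddit4, 2.21 for Eif2ak3 and 1.32 for Trib3, and they were under 1 for Chac1 (0.578), Atf5 (0.374) and Sesn2 (0.0373). In TDP-43iΔEC mice Atf4 (119) and Ppp1r15a (83.0) again led, and Trib3 (12.4) moved from rank 7 to rank 4 in the order (rank 5, below Asns, with the length of the canonical transcript). The length used matters for Ddit3, whose control median was 29.8 with the canonical transcript (979 bases) in place of the 5579 bases of all its exons, and for Asns, whose control median became 7.83, though the order of the 10 genes in control mice stayed the same.

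**Figure D3:**
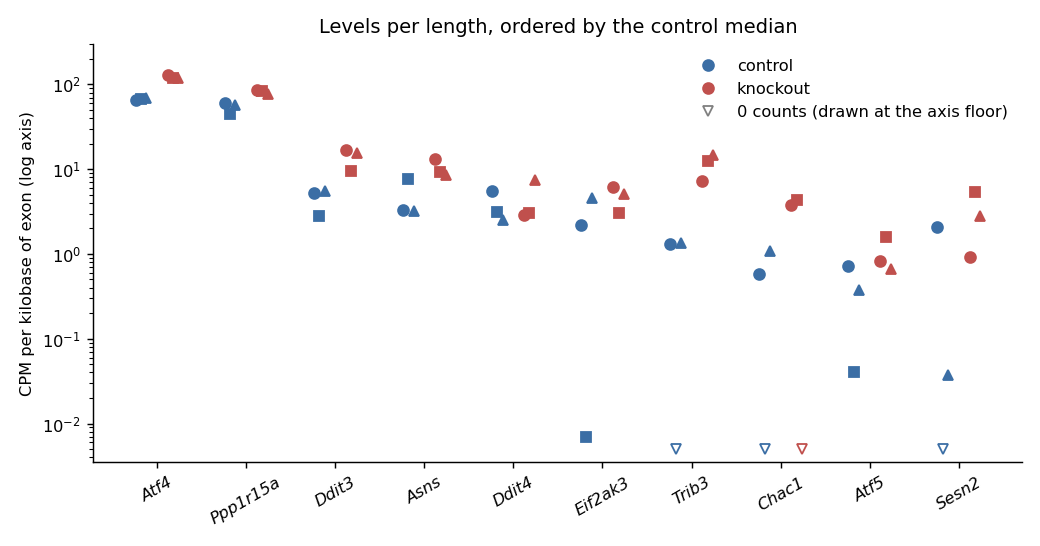
Level of each of the 10 genes in every library as CPM per kilobase of exonic sequence, on a log axis, ordered by the control median, with values of 0 drawn as open triangles at the lower edge. Atf4 and Ppp1r15a stand above the other genes in both groups, and Trib3 is the gene whose TDP-43iΔEC values move furthest up the order.

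Across the 6 libraries, log2 CPM of Ddit3 (Pearson r = 0.89), Ppp1r15a (0.86) and Asns (0.78) followed Atf4 most closely among the 10, and Chac1 (0.15) and Ddit4 (-0.05) followed it least. The tested genes most like Atf4 were 2310039H08Rik (0.99), Ctss (0.99) and Hoxc8 (0.99). These values are descriptions over 6 libraries that share a group structure and carry no test.

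The lists that follow are read against the shares of all tested genes at an unadjusted p under 0.05, which were 4.26% higher and 5.0% lower with all mice, and 2.69% higher and 6.46% lower without control mouse 2. Some genes are on several lists and are counted in each, among them Trib1, Atf3, Herpud1 and Sqstm1. Counts of different lists are therefore not independent.

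Upstream of ATF4, 17 genes were read. They were the remaining eIF2 kinases, the eIF2 subunits, the phosphatase partners, the exchange factor eIF2B, and Dnajc3, Impact, Eif2a and Eif2d. These 17 gave 0 calls in limma and 0 with an unadjusted p under 0.05, with a median log2 fold change of 0.10 (0.0067 without control mouse 2). The kinases Eif2ak1 (-0.30), Eif2ak2 (-1.42, SE 0.68, adjusted p = 0.558) and Eif2ak4 (-0.72) had log2 fold changes below 0, and Eif2ak3 had one above 0. The groups overlapped for each of these kinases. Control mouse 2 was the highest library for Eif2ak1, Eif2ak2 and Eif2ak4, and was near 0 for Eif2ak3. Without control mouse 2 they were at -0.03, -0.95 and -0.39, and Eif2ak3 was at 0.38, against a median of -0.17 over all tested genes. Paralogs of the 10 genes, 13 of them tested, had a median log2 fold change of -0.03, and 1 had an unadjusted p under 0.05 (0 without control mouse 2). This was Trib1, a pseudokinase related to Trib3 (807 ± 52.2 and 1691 ± 618 normalized counts, SD, n = 3 each, log2 fold change 1.00, adjusted p = 0.521). The paralogs Sesn1 (-0.05) and Sesn3 (-0.04) lay near 0.

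ATF4 is known to induce enzymes of serine, proline and one-carbon metabolism. Of 15 on this list in the count table, 11 had enough counts to be tested. Among the 11, 2 had an unadjusted p under 0.05, both higher, and the median log2 fold change was 0.12 (0.58 without control mouse 2). Apart and higher were 3 of 11, against 7.93% of all tested genes. Phgdh, the first enzyme of serine synthesis, had 266, 239 and 178 normalized counts in the controls and 1006, 1481 and 1469 in TDP-43iΔEC mice (log2 fold change 2.44, SE 0.65, adjusted p = 0.311). Mthfd2, a mitochondrial folate enzyme, had 4.99, 0 and 171 in control mice and 1485, 202 and 758 in TDP-43iΔEC mice (log2 fold change 6.51, SE 2.68, and 4.42, SE 2.53, adjusted p = 0.610 without control mouse 2). Phgdh and Mthfd2 were apart between the groups, whereas Psat1, the next enzyme of serine synthesis, was at 0.08 on the log2 scale. Mthfd2 had 6, 0 and 211 raw counts in the controls, so it was tested only because its TDP-43iΔEC counts were high.

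Amino acid transporters, another set of ATF4 targets, had 3 of 10 log2 fold changes above 0, against 49.3% of all tested genes. These were 4 of 10 without control mouse 2, against 41.2%. Of 10 tested, 0 were higher and 3 were lower at an unadjusted p under 0.05, and none passed the adjusted threshold. Slc7a1, the cationic amino acid transporter, had 32195, 22804 and 20406 normalized counts in the controls and 16681, 14961 and 11059 in TDP-43iΔEC mice (log2 fold change -0.82, SE 0.23, adjusted p = 0.334). Slc7a5 (-0.52, SE 0.15, adjusted p = 0.353) and its heavy chain partner Slc3a2 (-0.54, SE 0.16, adjusted p = 0.360), which together carry leucine across the blood-brain barrier, were lower too, while Slc7a11, the cystine transporter, was at 4.46 (SE 2.12) with 0.890 normalized counts in control mouse 2, and at 2.55 without it. Cytosolic aminoacyl-tRNA synthetases were split, with 4 of 20 higher and 3 of 20 lower at an unadjusted p under 0.05. Gars (0.84), Tars (0.96) and Rars (0.85) were among the higher and Yars (-1.78), Hars (-1.63) and Dars (-0.93) were the lower ones, none of them past the adjusted threshold. Without control mouse 2, 1 of 20 was higher and 2 of 20 were lower.

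Partner factors and other targets of ATF4 or CHOP gave 0 genes past the adjusted threshold in limma. Of 23 tested, 7 were higher and 1 was lower at an unadjusted p under 0.05, 19 had a log2 fold change above 0, against 49.3% of all tested genes, and the median was 0.51. Sqstm1, the autophagy receptor p62, had 22056, 16265 and 18891 normalized counts in the controls and 40627, 35215 and 28203 in TDP-43iΔEC mice (log2 fold change 0.85, SE 0.18, adjusted p = 0.223). Gdf15, a secreted stress cytokine, had 352, 245 and 221 in control mice and 1592, 755 and 1096 in TDP-43iΔEC mice (2.07, SE 0.65, adjusted p = 0.395). Both were apart between the groups. Klhl24 (-0.98, SE 0.26, adjusted p = 0.315) was apart in the lower direction.

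ER chaperones of the parallel IRE1 and ATF6 branches included a gene past the threshold. Hspa5, the ER chaperone BiP, rose from 21934, 22816 and 19488 normalized counts in control mice to 40040 and more in each TDP-43iΔEC mouse (46812 and 41696 in mice 2 and 3), a log2 fold change of 0.96 (SE 0.13, adjusted p = 0.0318). Without control mouse 2 Hspa5 was at 0.98 (SE 0.15, adjusted p = 0.0925), no longer past the threshold. Of 26 tested genes in this list, 5 had an unadjusted p under 0.05, all higher, and 2 had one without control mouse 2. Apart and higher were 13 of 26, against 7.93% of all tested genes, and the median log2 fold change was 0.35. Calr (0.55, SE 0.17, adjusted p = 0.370) and Creld2 (1.08, SE 0.37, adjusted p = 0.449) were higher without passing the threshold, and Xbp1, whose mRNA IRE1 splices, was at -0.32 (SE 0.42). Of 18 tested genes on the mTORC1 side of Sesn2 and Ddit4, 1 was higher and 3 were lower at an unadjusted p under 0.05. Eif4ebp1, a translation repressor that is both an mTORC1 substrate and an ATF4 target, had 871, 442 and 924 normalized counts in the controls and 2514, 2187 and 2835 in TDP-43iΔEC mice (log2 fold change 1.76, SE 0.39, adjusted p = 0.223). Tsc2 was at -1.19 (SE 0.29, adjusted p = 0.271) and Castor1 at -1.11 (SE 0.40, adjusted p = 0.471).

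**Figure D4:**
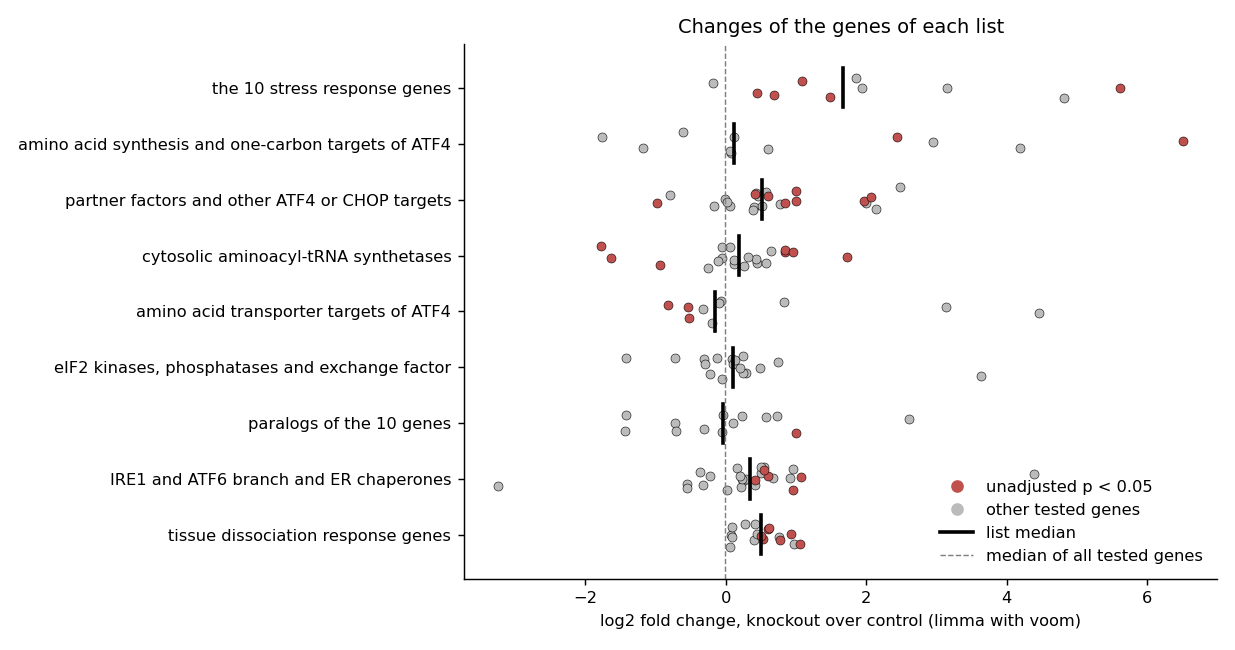
Log2 fold change of TDP-43iΔEC over control for every tested gene of each list, 1 row per list, with a black bar at the list's median and a dashed line at the median of all tested genes (-0.02). Most of the 10 stress response genes and of the other ATF4 or CHOP targets lie to the right of the line. So do most IRE1 and ATF6 branch genes (20 of 26 above 0) and all 17 dissociation genes, whereas 7 of the 10 amino acid transporters lie to the left.

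Genes that respond to handling, hypoxia, glucocorticoids or oxidants were read in the same samples. Tissue was dissociated here with enzymes at 37 °C. Of 17 genes known to be induced by such dissociation, 17 had a log2 fold change above 0, against 49.3% of all tested genes. Without control mouse 2 these were 15 of 17, against 41.2%. At an unadjusted p under 0.05, 7 of 17 were higher (3 without control mouse 2), and the median log2 fold change was 0.50. Among them Hspa1a, a heat shock protein, was at 0.77 (SE 0.19, adjusted p = 0.271), Ier3 at 0.94 (SE 0.30, adjusted p = 0.396) and Atf3, an early stress factor that also responds to ATF4, at 0.61 (SE 0.19, adjusted p = 0.399). Of 12 hypoxia-induced genes Adm, the vasodilator adrenomedullin, rose (log2 fold change 1.66, SE 0.21, adjusted p = 0.0270, and 0.0888 without control mouse 2), and 1 other, Aldoa (0.47), had an unadjusted p under 0.05, whereas 1 of the 12 had one without control mouse 2. Of 12 glucocorticoid-induced genes 2 were higher (Sgk1, 1.08, SE 0.19, adjusted p = 0.126, and Errfi1, 1.16) and 1 was lower (Tsc22d3, -0.64) at an unadjusted p under 0.05. Of 10 targets of the oxidant sensor NRF2, 3 were higher at an unadjusted p under 0.05, among them Sqstm1, Txnrd1 (1.64, SE 0.51, adjusted p = 0.391) and Nqo1 (5.19, SE 2.11, with 0 counts in control mouse 2). Txnrd1 was at 0.97 and Nqo1 at 2.84 when control mouse 2 was left out. The NRF2 targets had 9 of 10 log2 fold changes above 0, against 49.3% of all tested genes, with a median of 1.24. Apart and higher were 4 of 10, against 7.93%. Without control mouse 2, 7 of 10 were above 0, against 41.2%, and the median was 0.61. The part of these responses in the values of the 10 genes was not tested.

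Cell type markers were read beside these results, since in sorted cells taken as bulk, fewer cells of a type and less RNA per cell cannot be told apart. The 8 endothelial markers summed to 11041 to 14686 CPM in control mice and 10953 to 13136 in TDP-43iΔEC mice. Of the 8, 1 had a log2 fold change above 0, against 49.3% of all tested genes. Apart and lower were 3 of 8, against 7.10%, and 2 of 8 were lower at an unadjusted p under 0.05, against 5.0%. None passed the adjusted threshold, and the lowest p belonged to Flt1 (log2 fold change -0.69, SE 0.11, adjusted p = 0.0635). The 5 erythroid markers summed to 6336 to 9759 CPM in control mice and to 2197 to 2909 in TDP-43iΔEC mice, and 4 of the 5 fell past the adjusted threshold. Astrocyte markers in sum were lower in each TDP-43iΔEC library (136 to 194 CPM) than in each control library (218 to 249). Of the 5 astrocyte markers, 3 were tested with all mice, and 0 had a log2 fold change above 0. Without control mouse 2, 1 of 5 did, Gfap (1.43, SE 3.40). Neuron markers in sum were lower in each TDP-43iΔEC library too (0.815 to 2.16 CPM against 4.995 to 11.1, with Tubb3 at 0 in all libraries). The neuron list did not go one way, since Snap25 had 10.8, 26.7 and 230 normalized counts in the controls and 0 in each TDP-43iΔEC mouse, whereas Rbfox3 had 1.66, 0 and 0 in the controls and 31.8, 19.1 and 71.0 in TDP-43iΔEC mice. Oligodendrocyte lineage markers (15.7 to 497 against 288 to 546), mural cell markers (393 to 1022 against 483 to 822) and fibroblast markers (12.8 to 43.9 against 35.4 to 40.8) overlapped. For the oligodendrocyte lineage only TDP-43iΔEC mouse 1 (497 CPM) lay within the control range, with 59.4 and 15.7 CPM in mice 2 and 3. Its 5 markers had 0 log2 fold changes above 0, and 2 were lower at an unadjusted p under 0.05. Microglia and macrophage markers summed to at most 8.21 CPM, with Adgre1 at 0 in all libraries, and leukocyte markers to at most 9.78 CPM, with S100a8 and S100a9 at 0. The 18S ribosomal RNA gene Rn18s took 14.8% to 18.5% of counts in control mice and 8.04% to 13.6% in TDP-43iΔEC mice. The part of these differences in the values of the 10 genes was not tested.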

How the data were processed

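RNA-Seq was performed on sorted spinal cord ECs from 3 control and 3 TDP-43iΔEC mice, with conditions from the labels. The authors made oligo-dT SMARTseq2 libraries, with RNA input and PCR cycles that varied between samples and are not given per library, aligned reads to GRCm39 with STAR 2.7.8a and GENCODE M30, and quantified genes with RSEM 1.3.0 without strand. The resulting estimated counts were deposited as whole numbers (0 values were not whole), without scaling or filtering. PCR copies carry no molecular identifiers, so floors (3 counts) cover counting error only.

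Libraries were compared in R 4.3.3 with limma 3.58.1 (voom), using TMM factors and default filterByExpr from edgeR 4.0.16, with Benjamini-Hochberg adjustment over all 13107 tested genes and a threshold of 0.05. Normalized counts use size factors of DESeq2 1.42.0. The test scripts were tested on simulated data. GENCODE M39, which gave positions, matched 98.7% of gene identifiers. Intervals are 95% intervals of the limma fit. Exact permutation tests were two-sided. Genes named are the 10 genes, Tardbp, and in each list those past the threshold and up to 3 with the lowest unadjusted p, plus the 3 genes most like Atf4. Mars1, the eIF2 kinases, sestrin paralogs, Psat1, Xbp1, Slc7a11 and the synthetases or list members outside that rule were named after their values were seen. The 10 genes, the lists and the alternatives were chosen with earlier results of these data known. Alternatives were edgeR, DESeq2, quality weights, other scalings and filters, a GC and length correction, a replicate block and leaving out each mouse. The length per gene used for levels was varied after the data were seen.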

Additional observations from a re-analysis of the deposited data

How the results depend on the processing

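Of the 10 genes, 8 had a log2 fold change above 0 under every alternative that gave one (16 or 17 per gene), and the exceptions were Ddit4 and Chac1. Ddit4 was at 0.11 with edgeR, 0.14 with DESeq2, 0.053 with library size only, 0.0013 with scaling to endothelial markers, and -0.48 to 0.17 when each mouse was left out. Chac1 was at -0.13 with sample quality weights and -0.42 to 4.63 when each mouse was left out, the lowest without control mouse 2. Library size only and endothelial scaling shifted the median of all genes by 0.19 and 0.23, and leaving out control mouse 2 by -0.15. With limma 0 of the 10 passed the threshold, with DESeq2 2, and no other alternative called any. The number with an unadjusted p under 0.05 was 3 of 5 tested with at least 10 counts in every library, and 3 to 4 when each mouse was left out. With the GC and length trend removed it was 2 (Ddit3 and Trib3).

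Over all genes limma called 4 higher and 14 lower. Calls were 0 and 0 with edgeR (848 genes at an unadjusted p under 0.05), 107 and 143 with DESeq2, 0 and 0 with endothelial scaling (1268 genes), 27 and 49 with no filter, 10 and 29 with at least 10 counts in every library, 0 and 0 with GC and length removed (423 genes), and 0 to 1 and 0 to 13 when each mouse was left out. Lower calls were 6 with library size only and 9 without rRNA, hemoglobin and mitochondrial genes. Tardbp passed with DESeq2 (-1.65, adjusted p = 0.0216). The cause of these changes was not tested.

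The replicate block, tried because the labels number the mice 1 to 3 in each group, gave 3 higher and 19 lower genes and 0 of the 10 past the threshold, with 4 at an unadjusted p under 0.05. The numbers did not pair the mice (correlations of deviations -0.07, -0.13 and -0.02).

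Atf5, Chac1, Sesn2, Trib3 and Eif2ak3 each had under 10 counts in control mouse 2, which held 45329494 counts in all. In the shallowest library, TDP-43iΔEC mouse 3, a count of 0 allows up to 0.117 CPM.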
